A study of Mus musculus with 6 samples.

Results

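The genes described here encode metabotropic glutamate receptors and the Homer proteins. They were chosen by symbol, as the genes whose Ensembl identifier carried 1 of the listed Grm or Homer names in the GENCODE M21 mouse annotation, and comprised 9 of the 46078 genes in the table: Grm2, Grm3, Grm4, Grm5, Grm7, Grm8, Homer1, Homer2 and Homer3. RNA-seq libraries were made from the dissected striatum of 3 male wild-type (WT) mice and 3 male Shank3 transgenic (TG) mice aged 12 weeks, all on the C57BL/6J background, with 1 library per mouse. The Shank3 TG mice carry an EGFP-tagged Shank3 transgene that adds to the endogenous gene, and the promoter of the transgene is not given in the sources used here. The comparison asks whether a surplus of Shank3 RNA is accompanied by other levels of the RNAs for its glutamate receptor partners and their linkers.

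Metabotropic glutamate receptors are G protein-coupled receptors that sense glutamate. Group I, which includes mGluR5, signals through Gq to phospholipase C and calcium release and lies mostly on the postsynaptic side, whereas group II (mGluR2 and mGluR3) and group III (mGluR4, mGluR7 and mGluR8, with mGluR6 in the retina) signal through Gi/o and often dampen transmitter release. Homer proteins bind a short proline-rich motif in the tail of group I receptors, in Shank proteins and in inositol trisphosphate receptors, and long Homer forms join these partners by pairing through a coiled coil, while the short, activity-induced Homer1a form lacks the coiled coil. In the striatum mGluR5 is abundant in medium spiny neurons, and mGluR2 and mGluR4 are found on corticostriatal and striatopallidal nerve endings, respectively.

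The Homer-binding motif consists of 5 residues, with 2 prolines first and a phenylalanine last. It was searched in frame in the longest coding sequence of each gene, as CCN CCN, any 2 codons, and TTT or TTC. A match in Grm5 and 1 in Shank3 are shown because both genes are known to encode Homer partners, with the 15 motif bases in capitals and 9 bases of flank on each side in the direction of transcription. The coordinates are those of the capitals in GRCm38 with GENCODE M21.
Grm5, chr7:88130723-88130737, plus strand: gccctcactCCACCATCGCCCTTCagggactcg
Shank3, chr15:89549203-89549217, plus strand: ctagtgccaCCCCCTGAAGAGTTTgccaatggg
The Grm5 match lay in exon 9 of 9 and ended 43 residues before the end of the protein. The Shank3 match lay in exon 21 of 22, and a second one lay in the same exon at chr15:89547775-89547789. Grm3, Grm4, Grm8 and the 3 Homer genes held no match. Grm2 and Grm7 each held 1, which began at residue 186 of 872 and at residue 200 of 922, far from the tail that carries the Grm5 match. Of 21526 coding genes searched in the same way, 1496 (6.95%) held at least 1 match, so a match alone marks no binding site.

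Each library held between 27689589 and 36647626 reads assigned to genes. Values are normalized read counts, the reads of a gene divided by the size factor of its library. Shank3 had 29891, 28308.5 and 26044 normalized read counts in Shank3 TG replicates 1, 2 and 3 and 13807, 12918 and 13865 in WT replicates 1, 2 and 3. All TG libraries were above all WT libraries, and the log2 fold change was 1.05 (SE 0.06, 95% interval 0.92 to 1.18, limma adjusted P = 7.04e-05). Shank3 was the only gene of 17605 tested that passed an adjusted P value of 0.05 (0.00568% of genes) by limma, as by edgeR, whereas 7 genes passed by DESeq2 and 5 when limma was run on all genes with reads. Reads of the transgene and of the endogenous gene were not separated. All 10 markers of medium spiny neurons, the main striatal cell type, were present, and the most abundant of them, the phosphodiesterase gene Pde10a, had 31505 to 45595 normalized read counts.

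The libraries differed in the summed markers of spiny neurons and of neighbouring tissue. The markers of medium spiny neurons summed to 123534, 172888 and 144709 in Shank3 TG replicates 1, 2 and 3, and to between 149108 and 171967 in WT. Summed markers of cortical and thalamic excitatory neurons, led by the vesicular glutamate transporter Slc17a7, ran the other way, at 38788, 27374.5 and 38157 in TG and 31696.5 to 36355 in WT. Slc17a7 alone had a mean of 26213 counts in TG and 26130.5 in WT, against mean sums of 34773 and 34315. This sum therefore mostly reflects Slc17a7. TG replicate 1 was lower than the WT mean for 10 of 10 spiny neuron markers and higher for 10 of 10 excitatory markers. It also held 15641 summed counts of choroid plexus markers, against 680 and 1949 in the other TG libraries and 591 to 947 in WT. In bulk tissue, fewer cells of a type and less RNA per cell cannot be told apart.

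None of the 9 genes changed between Shank3 TG and WT striatum at an adjusted P value of 0.05. By limma 0 of 9 passed, and 0 of 9 had an unadjusted P value under 0.05, where 758 of 17605 genes (4.31%) did. edgeR's quasi-likelihood test and DESeq2 on the recovered reads also gave 0 of 9 on both counts. The TG and WT libraries overlapped for each of the 9 genes, whereas 1780 of all genes tested (10.1%) showed no overlap. Means were higher in TG for 6 genes and lower for 3, with a median log2 fold change of 0.01 over the 9 genes against -0.002 over all genes tested. The log2 fold changes lay between -0.13 and 0.18. The median SE was 0.08, close to the median of 0.09 over all genes. Single SEs ran from 0.05 for Grm3 to 0.16 for Grm2, and those of Homer2 (0.14) and Homer3 (0.12) were also above that median. With such errors a change of the size of the Shank3 difference lies outside each of the 9 intervals, of which the widest upper bound was 0.50, for Grm2.

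**Figure D1:**
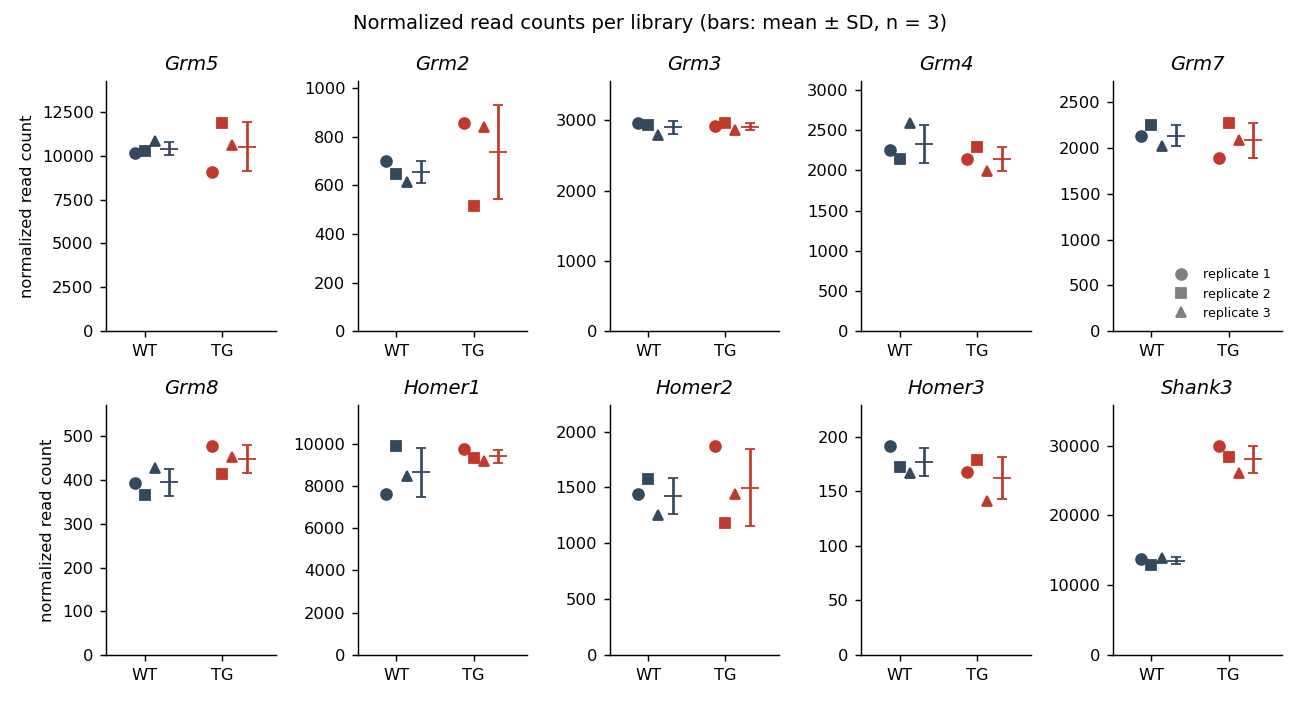
Normalized read counts of the 9 genes and of Shank3 in each library (points, shaped by replicate number), with mean and SD of 3 libraries per group. WT and Shank3 TG points overlap in every panel except that of Shank3.

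**Figure D2:**
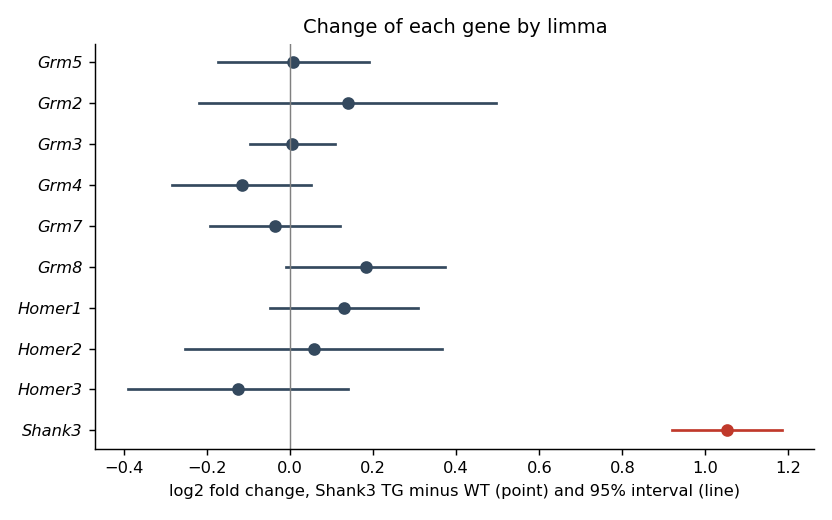
Log2 fold change of Shank3 TG over WT (points) with its 95% interval by limma (lines). The interval of each of the 9 receptor and Homer genes includes 0, while that of Shank3 runs from 0.92 to 1.18.

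Grm5, the group I receptor that Homer ties to Shank proteins, had the highest mean level per length of the 9 genes in WT when all annotated exons were taken as the length. The Shank3 TG libraries (replicates 1, 2 and 3, in this order here and for the genes that follow) had 9099, 11883 and 10596 normalized read counts, and the WT libraries 10161, 10267 and 10813. TG replicate 1 was the lowest and TG replicate 2 the highest of all 6 libraries, so that the TG libraries enclosed the WT ones. The log2 fold change was 0.01 (SE 0.08, 95% interval -0.17 to 0.19, limma adjusted P = 0.996), and the interval corresponds to a level of between 0.886 and 1.14 times WT. The SD was 1393 in TG and 349.9 in WT.

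Among the group II receptors, Grm2 was the most variable of the 9 genes and Grm3 the steadiest. Grm2 encodes a presynaptic autoreceptor of cortical and thalamic axons and had 857, 516 and 838 normalized read counts in TG and 700.4, 648 and 613 in WT. TG replicates 1 and 3 were above every WT library and TG replicate 2 was below every one. The log2 fold change was 0.14 (SE 0.16, 95% interval -0.22 to 0.50, limma adjusted P = 0.971). Without TG replicate 2 it was 0.38 (unadjusted P = 5.82e-04, limma adjusted P = 0.326), and without TG replicate 1 it was 0.01. Grm3, which is also made by astrocytes, had 2917, 2954 and 2854 counts in TG and 2964, 2938 and 2794 in WT. All 6 libraries fell within a narrow band. The Grm3 log2 fold change was 0.01 (SE 0.05, 95% interval -0.10 to 0.11, limma adjusted P = 0.995), which is the narrowest interval of the 9. The summed astrocyte markers, of which the glutamate transporter Slc1a2 was the most abundant, were 137780 to 145606 in TG and 137048 to 145198 in WT.

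The group III receptors Grm4, Grm7 and Grm8 had fold changes of different sign and none passed the test. Grm4, a receptor of striatopallidal and corticostriatal endings, had 2145, 2291 and 1994 normalized read counts in TG and 2255, 2141 and 2591 in WT. WT replicate 3 stood highest and the other libraries were interleaved, and the log2 fold change was -0.12 (SE 0.08, 95% interval -0.28 to 0.05, limma adjusted P = 0.971). Without WT replicate 3 it was -0.04, and without WT replicate 2 it was -0.18. Grm7, a receptor of low glutamate affinity placed at the release site, had 1885, 2274 and 2086 counts in TG and 2128, 2246 and 2016.5 in WT. As for Grm5, TG replicate 1 was the lowest and TG replicate 2 the highest. The log2 fold change of Grm7 was -0.04 (SE 0.07, 95% interval -0.19 to 0.12, limma adjusted P = 0.983).

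Grm8 had the smallest P value of the 9 genes. It had 477, 415 and 454 normalized read counts in TG and 394, 366 and 427 in WT. TG replicates 1 and 3 were above all WT libraries, while TG replicate 2 was below WT replicate 3. The log2 fold change was 0.18 (SE 0.09, 95% interval -0.01 to 0.37, limma unadjusted P = 0.0604, adjusted P = 0.971), which ranked 933 of 17605 by P value. The TG mean was 449 ± 31.5 and the WT mean 395 ± 30.7 (SD, n = 3). Without WT replicate 3, the only WT library above a TG library, the log2 fold change was 0.24 (limma adjusted P = 0.997). Grm6, the retinal member of group III, which is outside the chosen genes and was looked up after the values were seen, had at most 1 read in any library.

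Homer1 made up most of the Homer RNA per length. It had 9747, 9309.9 and 9164 normalized read counts in TG and 7604, 9870.4 and 8459 in WT. The TG libraries lay close together, above WT replicates 1 and 3 and below WT replicate 2. The mean was 9407 ± 303 in TG and 8644 ± 1145 in WT (SD, n = 3), and the log2 fold change was 0.13 (SE 0.08, 95% interval -0.05 to 0.31, limma adjusted P = 0.971). Without WT replicate 2, the only WT library above the TG libraries, the log2 fold change was 0.23 (limma unadjusted P = 0.00534, adjusted P = 0.990), and without WT replicate 1 it was 0.04. Homer1 has 12 annotated transcripts, and a count per gene does not separate the short Homer1a form from the long forms. Summed immediate early genes, a class induced by neuronal activity and led here by Egr1, were 44352, 34737 and 37871 counts in TG and 35132, 36208 and 46022 in WT. The high libraries in that list were TG replicate 1 and WT replicate 3. For Homer1, WT replicate 2 was the highest and TG replicate 1 the next. A relation of Homer1 to neuronal activity was not tested.

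Homer2 and Homer3 had fold changes of opposite sign that did not pass the test. Homer2, a long Homer with a coiled coil, had 1867, 1184 and 1439 normalized read counts in TG and 1439, 1571 and 1249.8 in WT. TG replicate 1 was the highest and TG replicate 2 the lowest of the 6 libraries, the reverse of Grm5, and the log2 fold change was 0.06 (SE 0.14, 95% interval -0.25 to 0.37, limma adjusted P = 0.986). Without TG replicate 1 the sign turned, with a log2 fold change of -0.12. Homer3 had 167, 179 and 141 counts in TG and 191, 172 and 167 in WT. The groups overlapped, and the Homer3 log2 fold change was -0.13 (SE 0.12, 95% interval -0.39 to 0.14, limma adjusted P = 0.971). Without TG replicate 3 it was -0.03, and without TG replicate 2 it was -0.20.

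Levels of different genes were compared per length of exon, as TPM, which corrects for exon length and for the library total. In WT the means were 121 ± 7.31 TPM for Grm5, 113 ± 3.45 for Grm3 and 86.4 ± 13.8 for Homer1 (SD, n = 3). Grm4 followed with 46.5 ± 5.34 TPM and Grm7 with 43.2 ± 2.87. Grm2 had 15.9 ± 0.626 TPM, Homer2 13.4 ± 1.60, Homer3 6.12 ± 0.238 and Grm8 4.77 ± 0.413. A group I receptor, a group II receptor and a Homer thus stood first. Over all 6 libraries, the TPM ranges of the neighbours Grm5 and Grm3, Grm4 and Grm7, Grm2 and Homer2, and Homer3 and Grm8 overlapped. With the longest transcript as length in place of all exons, the order within the pairs Grm3 and Homer1, Grm4 and Grm7, and Homer3 and Grm8 was turned, and Homer1 stood first, with 1513 normalized read counts per kb in WT against 1294 for Grm5 and 951 for Grm3. Shank3 stood at 372 ± 19.1 TPM in TG and 176 ± 6.72 in WT.

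**Figure D3:**
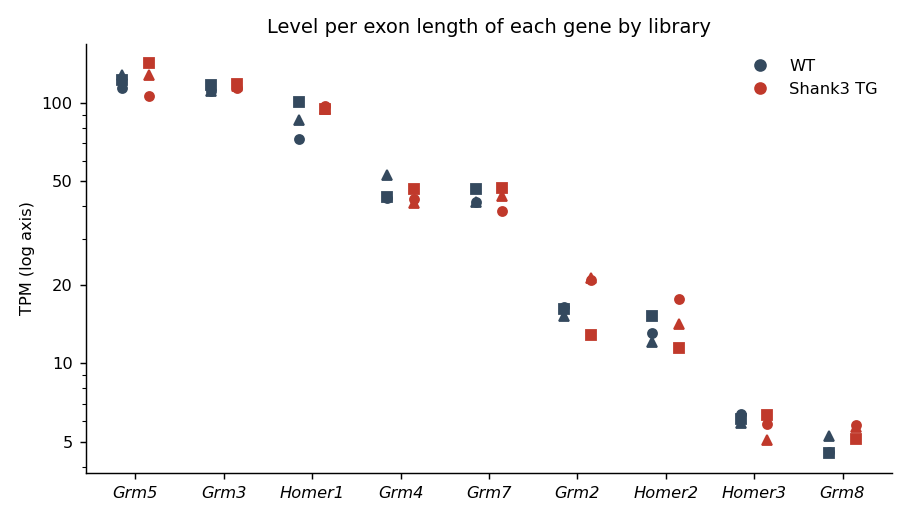
TPM of the 9 genes in each library on a log axis, with WT and Shank3 TG side by side and shapes for replicate numbers. Grm5 and Grm3 lie above 100 TPM in every library, and Grm8 and Homer3 between 4.50 and 6.37 TPM.

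Within each family, the share of every member overlapped between the groups. Homer1 made up 82.6 ± 1.89% of summed Homer TPM in TG and 81.4 ± 2.14% in WT. Homer2 made up 12.4 ± 2.24% and 12.7 ± 1.31%, and Homer3 4.97 ± 0.599% and 5.87 ± 0.962%. Of the summed TPM of the 6 receptors, Grm5 held 35.5 ± 2.91% in TG and 35.1 ± 0.943% in WT, and Grm3 held 33.1 ± 1.57% and 32.9 ± 1.26%. Group III receptors summed to 92.4 ± 6.22 TPM in TG and 94.5 ± 5.16 in WT, and group II receptors to 135 ± 3.08 and 129 ± 3.69 (SD, n = 3).

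The ratio of these RNAs to Shank3 RNA was lower in each TG library than in any WT library. Summed Homer TPM was 121, 113 and 114 in TG replicates 1, 2 and 3 and 92.2, 122 and 104 in WT. Per unit of Shank3 TPM this came to 0.311, 0.300 and 0.325 in TG and 0.535, 0.710 and 0.566 in WT. For Grm5 the ratio was 0.273, 0.376 and 0.365 in TG and 0.660, 0.713 and 0.699 in WT. Both ratios contain the Shank3 value, which itself differed between the groups, so neither was tested. These are ratios of RNA, and the share of Shank3 RNA that comes from the transgene was not measured here.

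**Figure D4:**
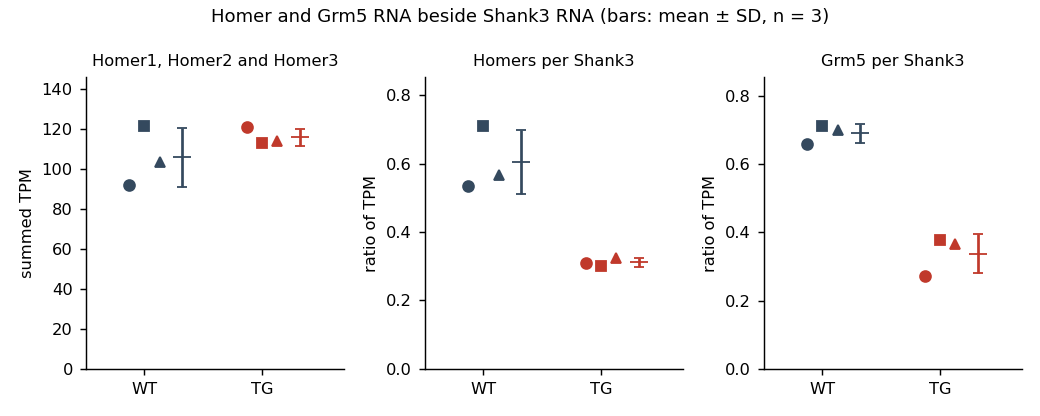
Summed Homer TPM (left), summed Homer TPM per Shank3 TPM (middle) and Grm5 TPM per Shank3 TPM (right) per library, with mean and SD of 3 libraries per group. The summed Homer level overlaps between groups, while the ratios to Shank3 lie at 0.376 or less in TG and at 0.535 or more in WT.

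The level of Grm2 followed the summed excitatory neuron markers of the libraries. No relation of Grm5 or Homer2 to a marker sum met the adjusted threshold. Over the 6 libraries, Grm2 rose with the summed excitatory neuron markers (Pearson's r = 0.955, exact permutation P = 0.00139, adjusted P = 0.025 over 18 relations of 9 genes with 2 marker sums). Spearman's rho was 1 (exact permutation P = 0.00278, adjusted P = 0.025), r was 0.990 without the 2 libraries farthest from the median marker sum, and r was 0.990 after the genotype means were taken out. Grm2 ran opposite to the summed medium spiny neuron markers, at r = -0.895 (exact permutation P = 0.0181, adjusted P = 0.106). This r was -0.850 without the 2 farthest libraries. The 2 marker sums ranked the 6 libraries in exactly reversed order, so for each gene the 2 rho values differ only in sign. The rho of -1 for the spiny neuron markers (exact permutation P = 0.00278, adjusted P = 0.025) therefore adds nothing to the rho of 1.

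Grm5 and Homer2 had opposite relations to the medium spiny neuron markers. For Grm5, r was 0.899 (exact permutation P = 0.0236, adjusted P = 0.106) and rho 0.829 (exact permutation P = 0.0583, adjusted P = 0.175). For Homer2, r was -0.930 (exact permutation P = 0.0125, adjusted P = 0.106) and rho -0.829 (exact permutation P = 0.0583, adjusted P = 0.175). With the excitatory markers r was -0.852 for Grm5 (exact permutation P = 0.0319, adjusted P = 0.115) and 0.822 for Homer2 (exact permutation P = 0.0458, adjusted P = 0.1375). None of these relations met the adjusted threshold. A relation to 1 sum and the reverse relation to the other cannot be told apart in these libraries. For the spiny neuron markers, r without TG replicates 1 and 2, the farthest libraries, was 0.572 for Grm5 and -0.690 for Homer2. For the excitatory markers the farthest were TG replicate 2 and WT replicate 3. Without them r was -0.471 for Grm5 and 0.395 for Homer2. The relations thus rested in part on these libraries. Within genotypes r with the spiny neuron markers was 0.979 for Grm5 and -0.956 for Homer2. Homer1 was close to no relation with either sum, with r = -0.256 for the spiny neuron markers (exact permutation P = 0.622, adjusted P = 0.772) and r = 0.0117 for the excitatory markers (exact permutation P = 0.982, adjusted P = 0.982). Its rho was -0.0857 and 0.0857, respectively (exact permutation P = 0.919, adjusted P = 0.919 for both), which is 1 value with its sign turned. Without the 2 farthest libraries its r was -0.0533 and 0.107. These relations were computed after the data were seen.

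**Figure D5:**
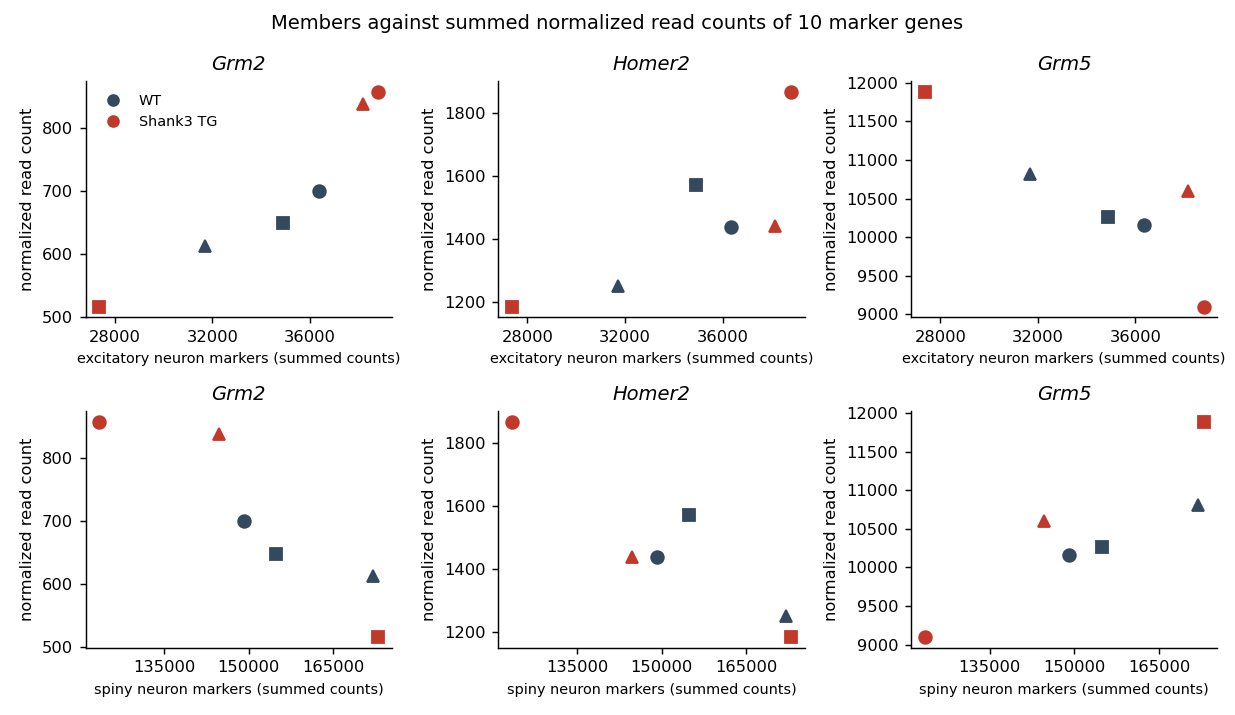
Normalized read counts of Grm2, Homer2 and Grm5 (vertical, axes not starting at 0) against the summed counts of 10 markers of cortical and thalamic excitatory neurons (top) or of medium spiny neurons (bottom), 1 point per library. Shank3 TG replicates 1 and 2 lie at opposite ends of each panel, with WT libraries between them.

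With the spiny neuron marker sum as a covariate in limma, the log2 fold change of Grm5 was 0.10 (SE 0.04, unadjusted P = 0.0478, adjusted P = 0.643) and those of Grm2 and Homer2 were -0.03 and -0.10. With the excitatory marker sum as the covariate, the SE of Grm2 was 0.06 in place of 0.16 and its log2 fold change was 0.13 (unadjusted P = 0.0622, adjusted P = 0.901). None of the 9 genes passed the adjusted threshold in either fit.

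The genes most like Grm5 and most like Homer1 over the 6 libraries were different ones. The genes with the highest Pearson correlation to Grm5 on the log2 scale were Fam131c (r = 0.999), the potassium channel gene Kcnq5 (r = 0.997) and the ciliary gene Tctn1 (r = 0.995), and 113 genes were over 0.95. For Homer1 they were the teneurin gene Tenm3 (r = 0.995), the F-box gene Fbxl7 (r = 0.994) and Gm37324 (r = 0.992), with 27 genes over 0.95. The same 6 libraries lie behind each correlation. Between members, the pairs with r largest in size are named, and none was tested. Grm5 and Homer2 ran opposite to each other (r = -0.946), as did Grm2 and Grm5 (r = -0.806) and Grm7 and Grm8 (r = -0.781). Grm2 ran with Homer2 (r = 0.788) and Grm5 with Grm7 (r = 0.726).

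The other binding partners of Homer and the downstream signaling genes held no called gene. Of 9 Homer binding partners, 4 were higher and 5 lower, with a median log2 fold change of -0.02 (6 and 3, with a median of 0.06, without TG replicate 1). Their extremes were the ryanodine receptor Ryr2 at 0.09 (SE 0.06, limma adjusted P = 0.971) and the scaffold Shank1 at -0.14 (SE 0.11, limma adjusted P = 0.971). Shank1, the paralog of the overexpressed gene, had 13834, 9392 and 11443 normalized read counts in TG and 13080.4, 13005 and 11763 in WT. The inositol trisphosphate receptor Itpr1, a Homer partner that releases calcium after group I receptor activity, had a log2 fold change of -0.02 (SE 0.07, limma adjusted P = 0.991).

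Of 22 genes of Gq signaling tested, 13 were higher and 9 lower, with a median log2 fold change of 0.01, and 1 had an unadjusted P value under 0.05. This was the phospholipase C gene Plcb4, with a log2 fold change of 0.20 (SE 0.09, limma unadjusted P = 0.0431, adjusted P = 0.971), named after its value was seen. The extremes with a mean of at least 100 counts were the protein kinase C gene Prkcd at 0.24 (SE 0.20) and the phospholipase C gene Plcb3 at -0.13 (SE 0.07), both with a limma adjusted P of 0.971. Prkcd had 675 counts in TG replicate 1 and between 330.1 and 419 in the other libraries. The neurochondrin gene Ncdn, also named after its value was seen, was lower in each TG library than in any WT library by a narrow margin, at 46410.2 in the highest TG library and 46414 in the lowest WT library (log2 fold change -0.05, limma unadjusted P = 0.318, adjusted P = 0.971). Such a lack of overlap was seen for 10.1% of all genes.

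Of 23 genes of Gi/o signaling, 10 were higher and 13 lower, with a median log2 fold change of -0.01 and 0 at an unadjusted P value under 0.05. The extremes were the potassium channel gene Kcnj3 at 0.17 (SE 0.11, limma adjusted P = 0.971) and the striatal adenylyl cyclase Adcy5 at -0.14 (SE 0.09, limma adjusted P = 0.971). Adcy5 had 32420.4, 41944 and 36065 counts in TG and 37206, 39725 and 44033 in WT, the same low and high libraries within TG as for Grm5. In 1 gene of this list, the G protein subunit Gnb2, which was named after its value was seen, the groups did not overlap, with TG lower (log2 fold change -0.09, limma unadjusted P = 0.0556, adjusted P = 0.971). Over all genes tested, 10.1% showed no overlap.

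Among the other marker lists, 10 of 10 choroid plexus markers were higher in TG, with a median log2 fold change of 1.12, 3 of them at an unadjusted P value under 0.05. TG replicate 1 carried most of this difference, and the sum in TG replicate 3 lay within the WT range. Without TG replicate 1, 8 of 10 were higher, with a median of 0.34. Clic6 was the most abundant in WT. All 10 microglial markers were lower, with a median of -0.12 and 4 at an unadjusted P value under 0.05, and their sum was 12610 to 13596 in TG and 13702 to 14358 in WT, with Csf1r the most abundant. The median was -0.13 for medium spiny neurons, 0.06 for excitatory neurons, -0.06 for astrocytes and -0.06 for oligodendrocytes (led by Mbp). It was -0.02 for endothelial cells (led by Flt1) and -0.03 for immediate early genes. Without TG replicate 1 these medians were 0.02, 0.01, -0.09, -0.06, -0.06 and -0.16, in the same order. In that setting 10 of 10 immediate early genes were lower. Of these, 3 had a limma unadjusted P value under 0.05, where 7.54% of all genes did. By limma, no marker in these lists was called. The part of microglia, choroid plexus or other admixture in the values of the 9 genes, beyond the marker covariates given above, was not tested.

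The reads of most members can be assigned to 1 gene. Grm3, Grm4, Grm5, Grm8 and Homer1 shared no stretch of the length of a read with the transcripts of another gene on either strand. Between receptors of the same group, 68.8% to 70.5% of aligned coding bases were identical, and between Homers 63.9% to 65.6%. Homer3 shares 874 exon bases (25.4% of its exons) with Ddx49 on the opposite strand, which has a mean of 525 normalized read counts, and 17.5% of its read-length stretches occur there. Whether counting used strand is not given in the sources used here, so Homer3 is the least certain of the 9 values. The overlap with antisense genes was 9.60% of exon bases for Grm2, 4.16% for Homer2 and 2.21% for Grm7.

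In GRCm38 coordinates from GENCODE M21, the group I receptor gene Grm5 spans chr7:87584168-88134907 on the plus strand. Of the group II genes, Grm2 spans chr9:106643095-106656082 and Grm3 chr5:9485541-9725170, both on the minus strand. Of the group III genes, Grm4 spans chr17:27422387-27521403 and Grm8 chr6:27275119-28135178 on the minus strand, and Grm7 spans chr6:110645581-111567230 on the plus strand. Homer1 spans chr13:93299635-93405129 on the plus strand, Homer2 chr7:81600481-81707527 on the minus strand and Homer3 chr8:70282827-70294361 on the plus strand. The reads counted for each are those over annotated exons.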

How the data were processed

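RNA from 3 Shank3 TG and 3 WT striata was sequenced paired-end from TruSeq RNA v2 libraries. The authors trimmed reads with Trimmomatic (0.35), aligned them with TopHat2 (2.1.0) to GRCm38 and used HTSeq for counts of reads in each gene. The deposited signal is the normalized read count, scaled by DESeq2 size factors. The annotation release and strand setting are not given in the sources used here. Dividing each library by its smallest value above 0 gave whole reads for 100% of values (tolerance 0.01). Of 46078 genes, 45229 were matched to GENCODE M21 and 29430 had reads. 

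The main test was limma (3.58.1, R 4.3.3) on log2(normalized read count + 1) with its variance trend. It covered the 17605 genes whose mean reached 10, and P values were adjusted by Benjamini-Hochberg (threshold 0.05). All 9 members passed this filter. Fold changes are on that scale, and SEs are limma's moderated ones. The exact permutation test over 3 against 3 libraries cannot give a P value below 0.1. Replicates are separate mice. TPM used the union of annotated exons. Alternatives were edgeR (4.0.16) and DESeq2 (1.42.0) on recovered reads, TMM scaling, pseudocounts of 0.5 and 5, no filter, a mean of at least 50, each library left out, a replicate block, and marker sums as covariates. The fit was tested on simulated data.

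The members, the lists of signaling and marker genes, and the rule for the genes named (the members, Shank3, the extremes of each signaling list with a mean of at least 100, any called gene, the most abundant gene of each marker list and the 3 genes most correlated with Grm5 and Homer1) were chosen with earlier results of these data known. Of the 23 listed Gq genes, 22 matched by symbol. A further gene in the rule is not reported here.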

Additional observations from a re-analysis of the deposited data

How the results depend on the processing

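In 16 alternative settings none of the 9 genes was called, and the smallest adjusted P value was 0.326 (Grm2 without TG replicate 2). Genes called over the whole table, 1 in the main test, numbered 7 by DESeq2, 5 without a filter, and 1 to 2 with a library left out (2 without TG replicate 2 or 3). They numbered 3 with the excitatory marker covariate and 5 with the spiny neuron covariate, both chosen after seeing the data. Members with an unadjusted P value under 0.05, 0 in the main test, numbered 1 with the spiny neuron covariate (Grm5), where 7.72% of all genes did, and 0 to 2 with a library left out. These were Grm2 and Grm8 without TG replicate 2 (5.84% of all genes), Homer1 without WT replicate 2 (3.73%) and Grm8 without WT replicate 3 (3.34%). Members without overlap numbered 0 to 2 with a library left out, where 17.0% to 25.6% of all genes had none, and leaving out the library that overlaps fixes this outcome.

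The sign of the log2 fold change turned with a library left out for Grm3 (-0.021 to 0.022), Grm5 (-0.084 to 0.11), Grm7 (-0.10 to 0.033) and Homer2 (-0.12 to 0.21), and with the spiny neuron covariate for Grm2 (-0.034), Grm7 (0.010) and Homer2 (-0.10). The cause was not tested. The log2 fold change of Shank3 stayed between 1.01 and 1.10 in all settings.

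With the replicate number as a replicate block, 1 member had an unadjusted P value under 0.05 (Grm8, limma unadjusted P = 0.0384, adjusted P = 0.851), where 5.82% of all genes did, and 1 gene was called. Libraries of the same number shared little (correlations of deviations 0.0474, 0.0163 and 0.0928), so the numbers were not taken to pair mice. Between TG and WT libraries of different number these correlations ran from -0.125 to 0.0771. With 3 mice per group, changes smaller than the intervals given were not detectable. Larger changes could also go uncalled, because a call rests on the adjusted P value and not on the interval. The choroid plexus marker Clic6, for example, had a log2 fold change of 0.55 with an interval of 0.19 to 0.92. It was not called (limma adjusted P = 0.971). Counts per gene do not separate transcripts.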
